A study of Mus musculus with 1012 samples.

Results

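The cells described are 49 IBA cells whose whole-cell transcriptome was read 1 h after part of their cytoplasm had been taken by Live-seq. They are 49 of the 1012 single-cell libraries of the series and were chosen by their labels alone, which give the cell line, the batch (8_1) and the time after sampling. They were compared with 70 control cells of the same batch, and 43 cells of that batch collected 4 h after sampling are shown beside them. IBA is an immortalised line of mouse brown preadipocytes, derived from the stromal cells of interscapular brown fat of male C57BL6/J mice, so that all groups are a single line and carry no treatment other than the sampling. The labels call the controls 0 h, while the methods describe them as cells that were never sampled, collected together with the sampled ones. Cells were plated sparsely and each was sampled within a window of 1 h, so that the time since sampling varied within a group, and the cytoplasm drawn out was not kept. They were then collected on ice, picked singly by dilution and processed with Smart-seq2, which amplifies full-length cDNA without molecular identifiers. Unsampled IBA cells of 3 other batches, named scRNA (93 cells), 8_8 (15 cells) and 9_1 (45 cells), were stained and sorted before Smart-seq2 and are given as a reference for levels only. What sorting or batch changed cannot be told apart from what sampling changed in any value set against them. Because the labels name 1 batch and no separate cultures, each group is 1 sample. No difference was tested, and intervals cover counting error only.

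Live-seq draws cytoplasm through a hollow cantilever tip that pierces the plasma membrane of a living, attached cell. A wounded membrane lets calcium in and is resealed with the help of annexins, ESCRT proteins and exocytosis, and injured or stretched fibroblast-like cells are known to switch on immediate early genes, clotting and plasminogen factors, growth factors of the EGF family and stress genes. The 4 genes that head the results were picked with earlier results of these data known, so their values are a description. Tiparp encodes an ADP-ribosyltransferase that is a target and a repressor of the aryl hydrocarbon receptor (AHR). F3 encodes tissue factor, the membrane receptor of factor VII that starts clotting. Jag1 encodes a membrane-bound Notch ligand, and Plk2 a polo-like kinase that is a target of p53 and of growth signals.

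Levels are CPM, that is counts scaled to 1e+06, of the counts summed over the cells of a group, after genes of the study's negative controls and ribosomal protein genes had been set aside. Total counts per cell had a median of 462758 in the control cells and 581052 in the 1 h cells, and lay between 38451 and 1077131 over the 162 cells of the batch. The number of genes detected had a median of 8244 in control cells and 8724 in 1 h cells. When cells were thinned to 100000 counts, the medians were 6683.5 and 6898 genes. The share of counts from mitochondrial genes had a median of 4.52% in control cells (0.0364% to 20.5%) and 8.74% in 1 h cells (0.0892% to 13.95%), and 38 of 49 1 h cells lay above the control median. Most of this share was the mitochondrial ribosomal RNA mt-Rnr2, at 60899 and 69487 CPM of all summed counts. Among the genes kept for the ratios, the mitochondrial share had medians of 2.01% and 2.39%. Ribosomal protein genes took a median of 7.83% and 6.78%, and RNAs known to stay in the nucleus took 0.130% and 0.108%.

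The cells of the batch fell into 2 clusters by mitochondrial share in every group, so list medians and the genes whose call moved are also given within them, with the cells split at 6%, a line set after the values were seen. Below 6% were 38 of 70 control cells (54.3%), 12 of 49 1 h cells (24.5%) and 17 of 43 4 h cells (39.5%). The cells at or above 6% also held more counts, with medians of 603476 against 317223 in the control group. Among control cells, genes with GC-rich transcripts were lower in the cells with the higher mitochondrial share, with a median log2 ratio of 0.35 in the lowest of 5 GC classes of genes and -0.68 in the highest. The 1 h against control comparison also fell with GC content over a smaller range, from 0.07 to -0.35. It fell from 0.08 to -0.36 within the cells below 6%, about as over all cells, and from -0.01 to -0.12 within the cells at or above 6%. The groups differed in the mix of these cells, and the part of the mix in each difference was not tested other than by the within-cluster values. Past 2-fold in the cells below 6% were 10.2% of genes higher and 18.2% lower, and in the cells at or above 6%, 3.19% and 4.07%.

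**Figure D1:**
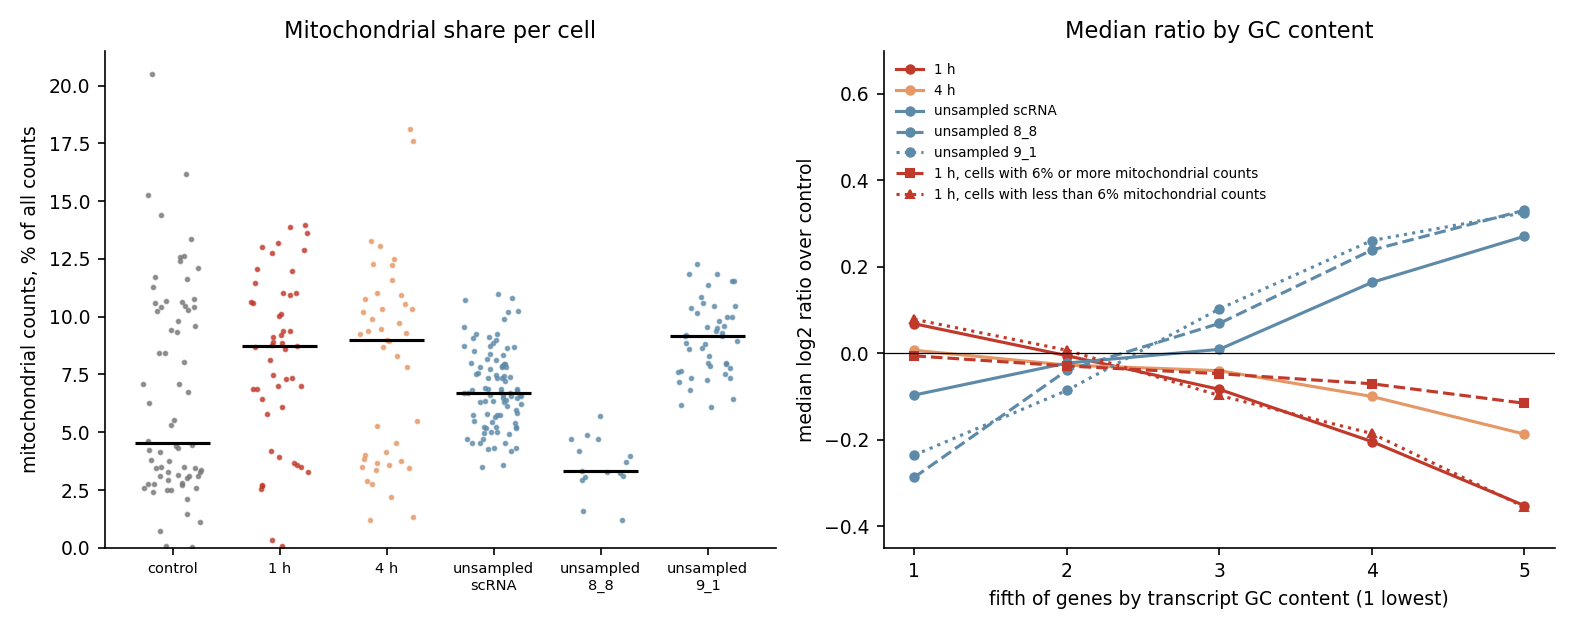
The left panel plots the mitochondrial share of counts (percent) of every cell in 6 groups, with group medians, and the right panel the median log2 ratio of genes in 5 classes of transcript GC content. Control cells and 1 h cells each form a lower and an upper cluster, and the medians of the whole groups are 4.52% for the control and 8.74% for 1 h. The 1 h against control line falls from 0.07 to -0.35 over all cells, from 0.08 to -0.36 among cells below 6% and from -0.01 to -0.12 among cells at or above 6%.

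The promoters of the 4 genes are shown as the sequence at the starts of genes that were all higher at 1 h, for comparison by elements of the pathways named. Each runs from 250 bases before to 50 bases after the RefSeq start in GRCm38.p6, 5′ to 3′ on the gene's strand. The positions are chr3:65528197-65528496 (plus strand) for Tiparp, chr3:121723287-121723586 (plus strand) for F3, chr2:137116471-137116770 (minus strand) for Jag1 and chr13:110394794-110395093 (plus strand) for Plk2. Capitals mark a match to a searched element.
Tiparp: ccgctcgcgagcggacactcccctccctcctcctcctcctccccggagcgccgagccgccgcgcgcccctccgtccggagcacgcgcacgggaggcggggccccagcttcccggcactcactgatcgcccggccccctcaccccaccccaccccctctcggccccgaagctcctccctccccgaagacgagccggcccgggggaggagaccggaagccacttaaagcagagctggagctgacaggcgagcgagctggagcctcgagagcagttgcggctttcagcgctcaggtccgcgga
F3: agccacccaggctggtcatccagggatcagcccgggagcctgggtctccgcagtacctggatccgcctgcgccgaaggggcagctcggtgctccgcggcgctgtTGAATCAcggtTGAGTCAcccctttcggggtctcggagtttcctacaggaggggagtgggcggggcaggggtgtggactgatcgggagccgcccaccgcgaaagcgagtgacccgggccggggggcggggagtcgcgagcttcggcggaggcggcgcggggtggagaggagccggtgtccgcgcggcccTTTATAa
Jag1: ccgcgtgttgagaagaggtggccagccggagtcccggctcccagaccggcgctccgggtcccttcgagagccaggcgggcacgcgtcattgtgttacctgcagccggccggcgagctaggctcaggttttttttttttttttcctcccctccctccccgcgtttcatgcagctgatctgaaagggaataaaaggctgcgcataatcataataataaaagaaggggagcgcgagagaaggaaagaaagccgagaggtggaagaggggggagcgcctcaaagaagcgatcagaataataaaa
Plk2: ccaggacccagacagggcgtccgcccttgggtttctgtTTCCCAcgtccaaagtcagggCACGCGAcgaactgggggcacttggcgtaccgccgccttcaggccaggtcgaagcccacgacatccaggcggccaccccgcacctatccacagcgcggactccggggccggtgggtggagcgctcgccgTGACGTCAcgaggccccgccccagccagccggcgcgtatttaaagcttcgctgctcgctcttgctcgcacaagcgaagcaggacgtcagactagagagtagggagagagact

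The elements searched on both strands were the AHR response element TNGCGTG, the AP-1 site TGANTCA, the cAMP response element TGACGTCA, the TATA box TATAAA, the RBPJ site TGGGAA, and the CArG box and kappa B site by name. F3 held a pair of AP-1 sites, at bases -146 to -140 and -135 to -129 from the start, and TATAAA on the opposite strand at bases 44 to 49. Plk2 held a cAMP response element at -62 to -55, an AHR response element at -191 to -185 and an RBPJ site at -212 to -207, the last 2 on the opposite strand. Tiparp and Jag1 held none of these letters in the window. Among 32817 promoters of the same length, 7.81% held an AP-1 site, 1.79% a cAMP response element, 5.06% an AHR response element, 13.6% a TATA box and 25.6% an RBPJ site. The matches describe the sequence and were not tested as binding sites.

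Tiparp (ENSMUSG00000034640, chr3:65528410-65555518, plus strand) was at 0 to 254.4 CPM in single control cells, with a median of 15.8, and at 0 to 1329 CPM in 1 h cells, with a median of 209.03. The groups overlapped, but 46 of 49 1 h cells lay above the control median and 30 of 49 above the control 90th percentile. Summed over cells, Tiparp was at 49.6 CPM (95% Poisson interval 46.8 to 52.5) in the control and 272.2 CPM (265.3 to 279.3) at 1 h, a log2 ratio of 2.46 (2.37 to 2.55), which is 5.49-fold. It was detected in 49 of 70 control cells (70%, exact binomial interval 57.9% to 80.4%) and 47 of 49 1 h cells (95.9%, 86.0% to 99.5%). On the log2(CPM + 1) scale its mean ± SD over cells was 3.64 ± 2.82 and 7.22 ± 2.21. At 4 h it was at 244.1 CPM, and the unsampled batches scRNA, 8_8 and 9_1 had 57.6, 83.8 and 61.4 CPM, so that both sampled groups lay above every unsampled group. The log2 ratio at 1 h was 2.77 among cells below 6% mitochondrial share and 2.28 among the others.

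F3 (ENSMUSG00000028128, chr3:121723537-121735048, plus strand) was at 0 to 540 CPM in single control cells (median 3.62) and at 0 to 1652 CPM in 1 h cells (median 71.9). Of the 1 h cells, 41 of 49 lay above the control median and 19 above the control 90th percentile. The sums were 51.96 CPM (49.1 to 54.9) and 241.8 CPM (235.3 to 248.4), a log2 ratio of 2.22 (2.13 to 2.31). Detection went from 38 of 70 cells (54.3%) to 43 of 49 (87.8%). At 4 h F3 was at 64.1 CPM, near the control. Among the unsampled batches it varied widely, at 495.01 CPM in scRNA, 29.4 in 8_8 and 394.2 in 9_1. The 1 h level was thus higher than its own control and lower than 2 batches of cells that were never sampled, with log2 ratios of -1.03 and -0.71 against them. The 1 h against control log2 ratio was 0.97 among cells below 6% mitochondrial share and 2.18 among the others.

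Jag1 (ENSMUSG00000027276, chr2:137081456-137116644, minus strand) was at 0 in most control cells, with a highest value of 120 CPM, and had a median of 3.74 and a highest value of 913.3 CPM in 1 h cells. It was detected in 19 of 70 control cells (27.1%) and 29 of 49 1 h cells (59.2%), and 18 of 49 1 h cells were above the control 90th percentile. The rest of the 1 h cells had little or no Jag1. Its sum was 8.24 CPM (7.14 to 9.46) in the control, 59.6 CPM (56.4 to 62.98) at 1 h and 11.3 CPM at 4 h, and 3.97 to 12.2 CPM in the unsampled batches. The log2 ratio at 1 h was 2.86 (2.64 to 3.08). A single 1 h cell held 25.7% of the group's Jag1 counts, and without the top cell of each group the log2 ratio was 3.07. It was 3.96 among cells below 6% mitochondrial share and 2.40 among the others.

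Plk2 (ENSMUSG00000021701, chr13:110395046-110400844, plus strand) was already frequent in control cells, with 60 of 70 (85.7%) having a count, against 48 of 49 (97.96%) at 1 h. Single cells lay between 0 and 1181 CPM in the control (median 133.4) and between 0 and 1987 CPM at 1 h (median 398.4), and 42 of 49 1 h cells were above the control median. The sums were 229.04 CPM (223.1 to 235.1), 540 CPM (530 to 550) and, at 4 h, 291.8 CPM, a log2 ratio at 1 h of 1.24 (1.19 to 1.28). The unsampled batches had 387.4, 141.7 and 123 CPM. The log2 ratio was 1.07 and 1.18 in the clusters below and above 6%.

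The 4 genes were found together more often at 1 h. At least 3 of them had a count in 45 of 49 1 h cells (91.8%), in 36 of 70 control cells (51.4%) and in 24 of 43 4 h cells (55.8%). All 4 had one in 26 1 h cells (53.1%) and 12 control cells (17.1%). Unsampled batch scRNA also had at least 3 of them in 81 of 93 cells (87.1%), so that the combination was not particular to sampled cells. When cells were thinned to 100000 kept counts, leaving out 6 control and 2 1 h cells, the detected shares were 68.8% and 97.9% for Tiparp, 48.4% and 87.2% for F3, 21.9% and 42.6% for Jag1, and 90.6% and 97.9% for Plk2.

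**Figure D2:**
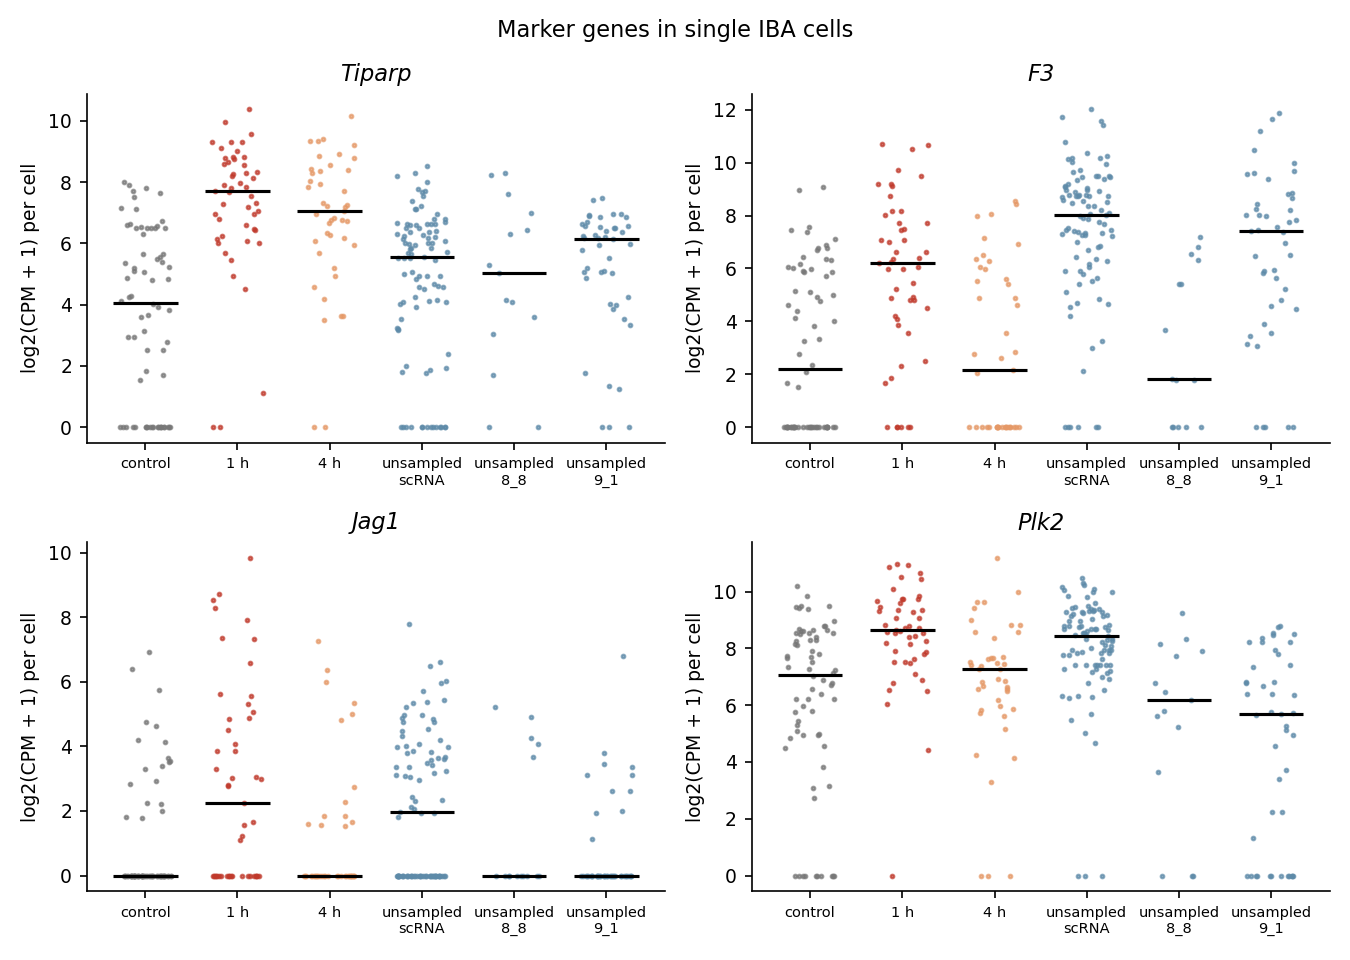
Each panel plots the level of Tiparp, F3, Jag1 or Plk2 in every cell as log2(CPM + 1) for the control, 1 h and 4 h cells of batch 8_1 and 3 unsampled batches, with a black line at the group median. The 1 h medians of 209.03, 71.9, 3.74 and 398.4 CPM lie above the control medians of 15.8, 3.62, 0 and 133.4 CPM, and single cells of the groups overlap in every panel.

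Across the transcriptome, 10408 genes passed the count filter, which asks for 2 or more counts in 15% or more of the 119 control and 1 h cells. Of these, 270 genes (2.59%) were at least 2-fold higher at 1 h and 5.45% at least 2-fold lower, while all 4 genes above were past 2-fold higher. The median log2 ratio of all genes was -0.10. Scaling by TMM moved that median to 0.00 and gave 3.26% higher and 3.86% lower genes, so that 45.7% of the genes past 2-fold were higher in place of 32.3%. The count filter pools unequal numbers of control and 1 h cells, and without it 42.9% of the genes past 2-fold were higher. Among the 4129 genes with a mean of at least 50 CPM, where counting error is small, 33 (0.799%) were higher and 35 (0.848%) lower. Of the 33, 27 (81.8%) lay above all 4 unsampled groups (the control and the 3 other batches), against 50.7% of all genes past 2-fold higher at any level, and 22 of the 35 (62.9%) lay below them, against 70.9% of all genes past 2-fold lower. The control is one of the 4 groups, so that genes past 2-fold from it are nearer to these limits than other genes. At least 2-fold above each unsampled group were 15 of the 33 (45.5%), against 20.4% of all genes past 2-fold higher. Among them were Tiparp, Timp3, Procr, Nqo1, Txnip, Areg, Ereg, Slc7a11, Timp1, the stress cytokine Gdf15 and the growth arrest gene Gadd45b. At least 2-fold below each were 14 of the 35 (40%), against 39.7% of all genes past 2-fold lower. Unsampled batches differed from the control more than the 1 h cells did, with 10.1% (8_8) to 15.6% (9_1) of genes past 2-fold higher and 9.01% (8_8) to 14.9% (scRNA) lower.

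**Figure D3:**
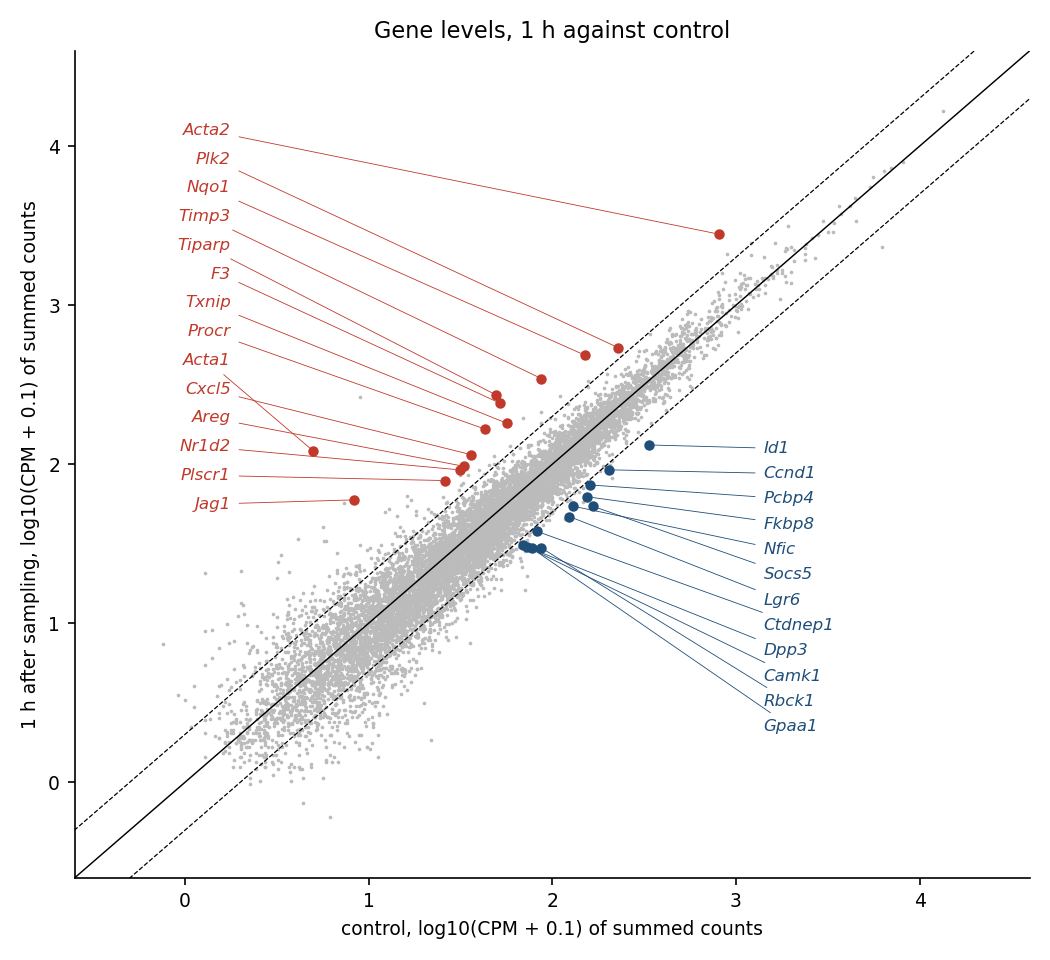
Each point is a gene, with its level in the control on the x axis and at 1 h on the y axis, both as log10(CPM + 0.1) of summed counts, and dashed lines mark 2-fold. Most genes lie between the lines, and the named genes at 50 CPM or more lie outside them, Tiparp and F3 among the higher ones and Socs5 and Id1 among the lower ones.

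The 12 genes with the highest log2 ratios by the naming rule at a mean of 50 CPM or more included Tiparp and F3. The other 10 fell into a few groups by what they do. Timp3, a matrix-bound inhibitor of metalloproteinases, was at 87.1 CPM in the control and 345.8 at 1 h (log2 ratio 1.99), with per-cell medians of 38.5 and 203.9. Procr, the receptor of protein C that dampens clotting, was at 42.99 and 166.3 CPM (1.95), with 11.1 to 20.8 CPM in the unsampled batches. Both a starter and a brake of the clotting system were thus higher at 1 h. The contractile actin Acta2, a target of serum response factor, was at 813.5 and 2794 CPM (1.78). Batch scRNA had 2332 CPM of Acta2 without sampling.

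Nqo1, a quinone reductase under the control of NRF2 and AHR, was at 151.6 CPM in the control, 483.5 at 1 h and 576.2 at 4 h, with 53.2 to 120 CPM in the unsampled batches. Txnip, which binds thioredoxin and responds to glucose, was at 56.9 and 180 CPM and was detected in 41 of 70 and 44 of 49 cells. Plscr1, a phospholipid scramblase, was at 25.9 and 78.9 CPM, but batches 8_8 and 9_1 had 77.8 and 68.7. Secreted signals were among the higher genes as well. The neutrophil chemokine Cxcl5 was at 36.1 and 114.8 CPM (24 of 70 and 31 of 49 cells), and amphiregulin (Areg), a ligand of the EGF receptor, was at 33.03 and 96.95 CPM (25 of 70 and 29 of 49 cells). Nr1d2, a repressor in the circadian clock, was at 31.2 and 92.2 CPM. Within the clusters of mitochondrial share, the 12 genes were all higher at 1 h in both. Past 2-fold were 12 of 12 at or above 6%, where 3.19% of all genes were past 2-fold higher. Below 6% they were 11 of 12, where 10.2% of all genes were and F3 was at 0.97. The 12 were chosen for their ratio over these same cells, so that agreement within the clusters was partly set by the choice.

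Acta1, the skeletal muscle actin, had the largest ratio of the 12 but rested on few cells. It was at 4.88 CPM in the control and 122 CPM at 1 h, a log2 ratio of 4.64, and 86.5% of its 1 h counts came from 1 cell. Without the top cell of each group the log2 ratio was 2.65. Its detection was 27.1% and 28.6% of cells. Acta1 is close in sequence to Acta2, and reads of the pair can be hard to assign.

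The 12 genes with the lowest log2 ratios by the same rule had a median transcript GC content of 56.6%, against 49.1% for all genes and 46.8% for the 12 higher ones. Regulators of cytokine, BMP and growth signals were among them. Socs5, a suppressor of cytokine and EGF receptor signalling, was at 166.4 CPM in the control, 54.4 at 1 h and 39.8 at 4 h, with 140.3 to 171.3 CPM in the unsampled batches, a log2 ratio of -1.61. Its per-cell median was 146.4 CPM in the control and 34.2 at 1 h, and both sampled groups lay below every unsampled one. Id1, an inhibitor of basic helix-loop-helix factors and a BMP target, was at 336.9, 132 and 95.6 CPM in the control, 1 h and 4 h cells (log2 ratio -1.35 at 1 h). Cyclin D1 (Ccnd1), which drives entry into S phase, was at 203.96 and 92.2 CPM (-1.15). Lgr6, a receptor of R-spondins, was at 123.7 and 46.9 CPM (-1.40), although batch scRNA had 17.7 CPM without sampling.

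The other lower genes had general cell functions. Rbck1, a subunit of the linear ubiquitin ligase, was at 86.8 and 29.8 CPM. Gpaa1, of the enzyme that attaches GPI anchors, was at 77.3 and 29.5 CPM, and Fkbp8, an immunophilin of the mitochondrial outer membrane, at 153.6 and 62.5 CPM. The kinase Camk1, the transcription factor Nfic, the peptidase Dpp3, the nuclear envelope phosphatase Ctdnep1 and the RNA-binding protein Pcbp4 had log2 ratios from -1.27 to -1.12. All 12 genes were lower at 1 h in both clusters of mitochondrial share, but 5 of 12 were past 2-fold at or above 6%, where 4.07% of all genes were past 2-fold lower, and 9 of 12 below, where 18.2% were. At or above 6%, these 5 were Socs5 (-1.51), Lgr6 (-1.24), Id1 (-1.21), Rbck1 (-1.04) and Camk1 (-1.01), while Ccnd1 was at -0.96. The 12 lower genes were likewise chosen for their ratio over these same cells.

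Counts past 2-fold in this and the following lists stand beside 2.59% of all genes higher and 5.45% lower. In the AHR and TIPARP pathway, 5 of 8 genes passed the count filter, 2 of these were past 2-fold higher (Tiparp and Nqo1) and none lower, and the median log2 ratio was 0.78 (1.31 below 6% mitochondrial share and 0.66 at or above). Ahr itself, the ligand-activated receptor, was at 14.1 and 24.4 CPM (0.78), and its partner Arnt at 49.8 and 52.6 CPM (0.08). Cyp1b1, a monooxygenase induced by the receptor, was at 77.3 and 105.8 CPM. The receptor's most specific targets were near the limit of detection. Cyp1a1 had no count in 70 control cells, which allows a count in up to 4.29% of cells and sets no limit on the cells that express it, and none in the unsampled batches. At 1 h it was at 22.5 CPM, with counts in 5 of 49 cells and 77.3% of them in 1 cell, which is at least 183-fold higher than a floor of 3 counts over the control group. Without that cell it was at 5.27 CPM, at least 42.9-fold higher than the same floor. Ahrr, the receptor's repressor, was at 0.902 CPM (3 of 70 cells) and 6.04 CPM (11 of 49 cells), below the count filter.

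Among tissue factor, plasminogen and injury signals, 14 of 17 genes passed the filter, 4 were past 2-fold higher, none was lower past 2-fold, and the median log2 ratio was 0.42 (0.48 below 6% mitochondrial share and 0.33 at or above). Besides F3 and Areg these were epiregulin (Ereg), a second EGF receptor ligand, at 156.8 and 331.8 CPM, and the plasminogen activator Plat at 15.3 and 38.1 CPM. At or above 6% mitochondrial share both were within 2-fold, Ereg at 0.65 and Plat at 0.62, and below it they were at 2.12 and 3.94. Plat was at 77.8 to 173 CPM in the unsampled batches, above the 1 h level, whereas Ereg was at 33.4 to 105.2 CPM there. The prostaglandin synthase Ptgs2 was higher within 2-fold, with a log2 ratio of 0.72. Not all injury genes were higher, with the EGF-family ligand Hbegf at -0.38 and the angiogenic factor Vegfa at -0.41. Interleukin 6 and Lif were below the filter.

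Jag1 was the only Notch gene past 2-fold. Of 18 genes, 8 passed the filter, 1 was past 2-fold higher, none lower, and the median log2 ratio was 0.04 (0.04 below 6% mitochondrial share and -0.05 at or above). The receptors Notch1 (11.1 and 11.3 CPM) and Notch2 (119 and 137.6 CPM) were close to the control. Hes1, a direct Notch target, was at 53.4 CPM in the control and 28.9 at 1 h, a log2 ratio of -0.89, which was -1.30 at or above 6% mitochondrial share and 0.42 below.

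Of 18 polo-like kinase and p53 target genes, all passed the filter, 5 were past 2-fold higher, none lower, and the median log2 ratio was 0.30 (0.21 below 6% mitochondrial share and 0.43 at or above). Gadd45a, a stress gene of growth arrest and DNA repair, was at 12.1 CPM in 21 of 70 control cells and 49.7 CPM in 37 of 49 1 h cells (2.04). The cell death gene Bbc3 was at 1.29, but at 0.21 at or above 6% mitochondrial share, which holds most 1 h cells, and at 3.34 below. Pmaip1, another cell death gene, was at 1.02 (0.67 without the top cells), and at 0.58 below 6% and 1.06 at or above. Trp53inp1 (1.81, or 1.06 without the top cells) had 63.4% of its 1 h counts in 1 cell and was at -0.38 among cells below 6% mitochondrial share. Mdm2, the p53 ubiquitin ligase, was at 199.3 and 368.8 CPM (0.89), and the cell cycle inhibitor Cdkn1a at 321.2 and 419.4 (0.38). The mitotic kinase Plk1 was at 95.04 and 53.7 CPM (-0.82), in contrast to Plk2.

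Immediate early transcription factors were mixed. Of 27 genes, 25 passed the filter, 5 were past 2-fold higher, none lower, and the median was 0.13 (0.23 at or above 6% mitochondrial share and -0.18 below). Atf3, a stress-induced factor, was at 4.02 CPM in 10 of 70 control cells and 33.7 CPM in 26 of 49 1 h cells (3.07), and lay above all unsampled groups (3.34 to 8.78 CPM). Fosb was at 3.07 and 19.0 CPM (9 and 18 cells), Klf2 at 8.44 and 22.7 CPM, and Egr2 at 8.44 and 20.02 CPM. Atf3 and Fosb were detected in too few control cells to pass the count filter without 1 h cells. That they count as higher was thus partly set by the filter. The log2 ratio of Egr2 was 1.49 at or above 6% mitochondrial share and turned to -0.30 below. Fos was at 12.8 and 51.9 CPM, yet it was detected in 18 of 70 and 17 of 49 cells, and its log2 ratio of 2.02 was likewise 3.19 at or above 6% and -0.30 below. The classical members Egr1 (0.33), Junb (0.35), Myc (-0.25) and Jun (-0.57) were within 2-fold. Genes of MAP kinase feedback had 0 of 13 past 2-fold either way and a median of 0.04 (-0.21 below 6% and 0.16 at or above), with Dusp1 at 0.93.

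Genes that respond to tension through SRF or YAP had a median of 0.14 (0.03 below 6% mitochondrial share and 0.29 at or above), with 2 of 18 past 2-fold higher, Acta2 and the actin-binding protein Tagln (13.7 and 29.4 CPM). The matricellular protein Ccn2 was at 841.5 and 1600 CPM (0.93), while Ccn1 was at -0.14 and Ankrd1 at -0.13.

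Genes of membrane repair went both ways within 2-fold. Of 28 genes, 25 passed the filter, 13 were on the higher and 12 on the lower side, none was past 2-fold and the median log2 ratio was 0.00 (0.04 below 6% mitochondrial share and -0.02 at or above). Anxa2 and dysferlin (Dysf) were at 0.00, Anxa1, an annexin that also resolves inflammation, was at 1059.4 and 1604 CPM (0.60), and Cavin1, a caveolar coat protein, was at -0.50. Heat shock genes were likewise within 2-fold, 0 of 12, with a median of 0.05 (0.36 below 6% and -0.08 at or above) and Hspa8 at -0.30. In the unfolded protein and integrated stress response, 13 of 15 genes were on the higher side with a median of 0.39 (0.15 below 6% and 0.31 at or above), but 1 was past 2-fold, the phosphatase subunit Ppp1r15a at 40.1 and 92.2 CPM, whose log2 ratio was 0.89 below 6%. Ddit3, a factor of this response, was at 41.96 and 72.97 CPM.

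In the NRF2 and metallothionein group, 2 of 11 genes were past 2-fold higher, with a median of 0.49 (0.54 below 6% mitochondrial share and 0.39 at or above). Osgin1 was at 20.9 and 52.1 CPM, and the cystine transporter Slc7a11 at 87.3, 182 and 215.2 CPM in control, 1 h and 4 h cells. The 1 h log2 ratio of Slc7a11 was 2.30 below 6% and 0.64 at or above. Heme oxygenase (Hmox1) was at 291.3, 479.4 and 910 CPM. The median of this group at 4 h was 0.92. In the NF-kB response, 4 of 15 genes were past 2-fold higher with a median of 0.44. These were Cxcl5, the chemokine Cxcl1 (110.6 and 270 CPM), the inhibitor Tnfaip3 (17.9 and 50.5 CPM) and the adhesion molecule Vcam1 (25.4 and 62.2 CPM, below batches scRNA and 9_1 at 206.5 and 234.7). The inhibitor Nfkbia was at 0.33. Together the NF-kB genes were at 2653 CPM in the control and 2923 at 1 h. Unsampled batches scRNA, 8_8 and 9_1 were higher, at 3291, 3189 and 5116 CPM. Single cells reached 23512 CPM of these genes in the control (median 2077) and 13160 CPM at 1 h (median 2387). The median of the NF-kB genes was 0.30 at or above 6% mitochondrial share and -0.04 below, where Tnfaip3 was at 0.25 and Cxcl1 at 0.53.

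Hypoxia genes had 3 of 13 past 2-fold higher and 1 lower, with a median of 0.32 (0.28 below 6% mitochondrial share and 0.38 at or above). Adrenomedullin (Adm), a vasodilator peptide, was at 7.25 and 56.7 CPM in 11 of 70 and 15 of 49 cells, and at 139 CPM in batch scRNA. Its control cells alone were too few to pass the count filter. Egln3 (2.02) and Ndrg1 (1.37) were higher, and Ddit4, an inhibitor of mTORC1, was at 6.64 and 2.63 CPM (-1.34). Together the hypoxia genes were at 2055 CPM in the control and 2342 at 1 h, below unsampled batches scRNA, 8_8 and 9_1 at 2514, 2926 and 3457.

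Targets of TGF-beta and BMP went both ways, with 1 of 18 past 2-fold higher and 3 lower, and a median of 0.17 that was 0.29 at or above 6% mitochondrial share and -0.25 below. The pseudoreceptor Bambi was at 1.97 CPM in 8 of 70 cells and 12.9 CPM in 20 of 49 (2.71). Bambi had too few control cells to pass the count filter without 1 h cells. Besides Id1, the inhibitory Smad6 was at 22.5 and 8.95 CPM, in 49 of 70 and 18 of 49 cells, and the factor Snai1 at 121.0 and 58.5 CPM (-1.05, and -0.97 at or above 6%). Id3 was at -0.45 and Id2 at 0.07. In the SOCS family 0 of 8 genes were past 2-fold higher and 2 lower, with a median of -0.29 (-0.79 below 6% and -0.04 at or above). Socs1, which blocks JAK kinases, was at 18.8 CPM in 50 of 70 cells and 6.37 CPM in 23 of 49, beside Socs5 above.

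Over all genes 40.8% were on the higher side and 59.2% on the lower side, against which genes of the cell cycle are read. Of 54 G2 and mitosis genes, 46 were on the lower side, 1 of them past 2-fold (Cdc25c, 58.6 and 27.9 CPM), with a median of -0.31. Of 43 S phase genes, 35 were on the higher side, 1 of them past 2-fold (cyclin E2, Ccne2, 96.9 and 195.7 CPM), with a median of 0.22. Both medians kept their sign in the cells below 6% mitochondrial share (-0.53 and 0.41) and at or above it (-0.27 and 0.20). The G2 and mitosis genes together were at 12136 CPM in the control and 9951 at 1 h. Unsampled batches scRNA, 8_8 and 9_1 had 10771, 9842 and 9618 CPM, so that the control was the highest group and 1 h lay among the others. The S phase genes were at 7386 and 8983 CPM, with 7531, 8928 and 7453 in those batches. Of 9 D cyclin and CDK inhibitor genes counted in, Ccnd1 was past 2-fold lower and Ccne2 higher. The median of this list was -0.26 (-0.46 below 6% and -0.13 at or above). At or above 6% Ccnd1 and Ccne2 were both within 2-fold, at -0.96 and 0.93.

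Matrix genes had 4 of 17 past 2-fold higher and 1 lower, with a median of 0.21 (0.07 below 6% mitochondrial share and 0.23 at or above). The crosslinking enzymes Lox (890 and 2093 CPM) and Loxl2 (6.64 and 27.7 CPM) and the inhibitors Timp1 (1205 and 2459 CPM) and Timp3 were higher, and Loxl3 was lower (25.6 and 9.41 CPM). Timp1 was at 0.86 at or above 6%. Batch scRNA had 3901 CPM of Lox. Srebf2, a regulator of cholesterol synthesis, was at -1.01 (-0.50 at or above 6%). In the circadian clock, Nr1d2 and Bhlhe40 (31.8 and 73.6 CPM) were past 2-fold higher of 11 genes, with a median of 0.14 (0.19 below 6% and 0.32 at or above). Glucocorticoid-responsive genes had 0 of 5 past 2-fold, with a median of 0.31 (0.07 below 6% and 0.24 at or above). Of 6 nuclear-retained RNAs, Kcnq1ot1 was past 2-fold lower (116.6 and 45.1 CPM), with a log2 ratio of -0.33 below 6% mitochondrial share and -1.33 at or above. It is antisense to Kcnq1, and counting did not use strand.

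**Figure D4:**
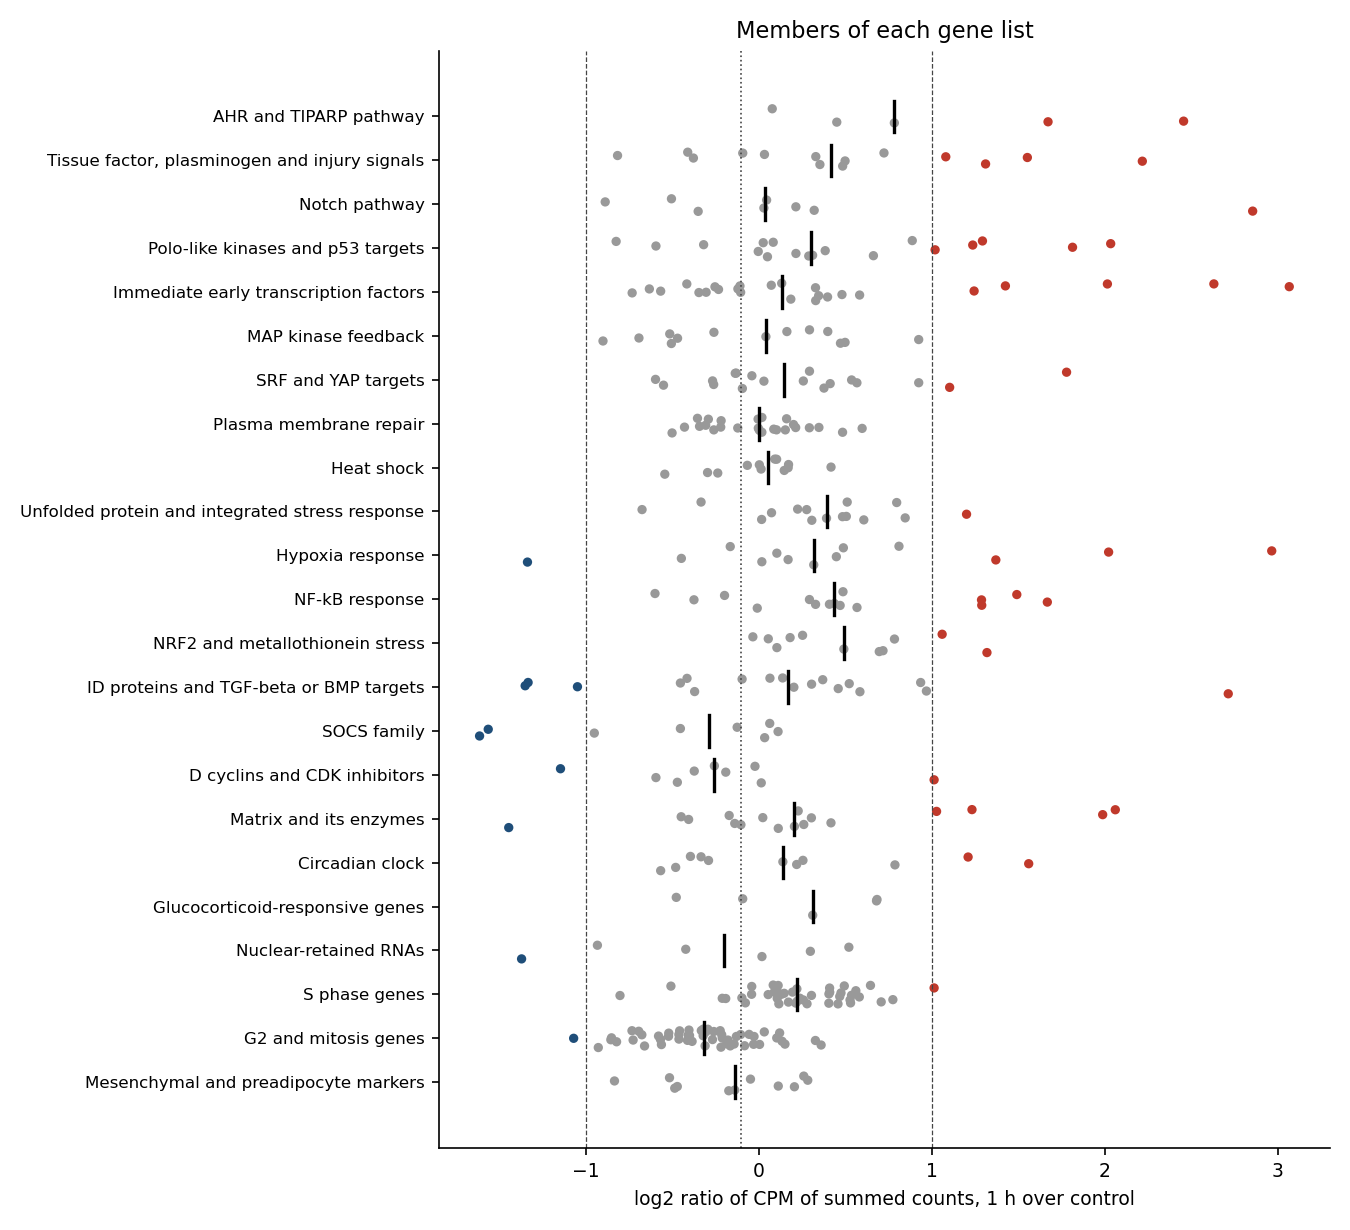
Each row is a gene list and each point a member, placed by its log2 ratio of summed CPM, 1 h over control, with a black bar at the list median, a dotted line at the all-gene median of -0.10 and dashed lines at 2-fold. Most members lie between the dashed lines in every row. Lists with few members counted in, such as the adipocyte markers, are not drawn. The AHR list has a median of 0.78, the NRF2 list 0.49, membrane repair 0.00 and the G2 and mitosis list -0.31.

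In control and 1 h cells, most mesenchymal markers were present and markers of other cell types were at or near 0, other than Lpl, Fabp4 and Cd14. Mesenchymal and preadipocyte markers had 11 of 15 genes counted in and none past 2-fold, with a median log2 ratio of -0.14 (-0.18 below 6% mitochondrial share and -0.15 at or above). Their summed level per cell lay between 69.5 and 5786 CPM in control cells (median 2374) and between 854.9 and 8481 CPM in 1 h cells (median 2541). The medians of the unsampled batches were higher, from 5213 to 11875 CPM, although 1 cell of batch 9_1 had no count of these markers. Macrophage markers summed to medians of 9.41 and 3.94 CPM, with Ptprc and Itgam at 0 in both groups and the lipopolysaccharide co-receptor Cd14 at 18.6 and 14.4 CPM, in 42.9% and 40.8% of cells. In unsampled batch 9_1 the median was 7.60 CPM, but the highest cell reached 31781 CPM of macrophage markers. Epithelial and endothelial markers had medians of 0, with Epcam, Cdh1, Krt14 and Kdr at 0. Adipocyte markers summed to medians of 47.7 and 34.95 CPM, mostly from lipoprotein lipase (Lpl), at 77.5 and 57.7 CPM in 51 of 70 and 39 of 49 cells. Of the other adipocyte markers, Adipoq, Cidea, Cidec and Lep were at 0, and 1 of the 2 counted in, the fatty acid carrier Fabp4, was past 2-fold higher, at 6.02 CPM in 26 of 70 cells and 19.6 CPM in 17 of 49.

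Against the same control cells, 2.7% of genes were at least 2-fold higher and 7.66% at least 2-fold lower at 4 h. The comparisons share their controls, so the values are given side by side only. Tiparp (272.2 CPM at 1 h and 244.1 at 4 h), Nqo1 (483.5 and 576.2), Procr (166.3 and 114.6) and Nr1d2 (92.2 and 99.02) were above the control at both times, and Socs5 (54.4 and 39.8) and Id1 (132 and 95.6) were below it. F3 (241.8 and 64.1), Jag1 (59.6 and 11.3), Timp3 (345.8 and 111.5), Fos (51.9 and 9.12) and Egr2 (20.02 and 2.14) were nearer to, or below, the control at 4 h. Median log2 ratios of the lists at 1 h and 4 h were 0.42 and -0.14 for tissue factor and injury signals, 0.13 and -0.24 for immediate early factors, and 0.49 and 0.92 for the NRF2 group.

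**Figure D5:**
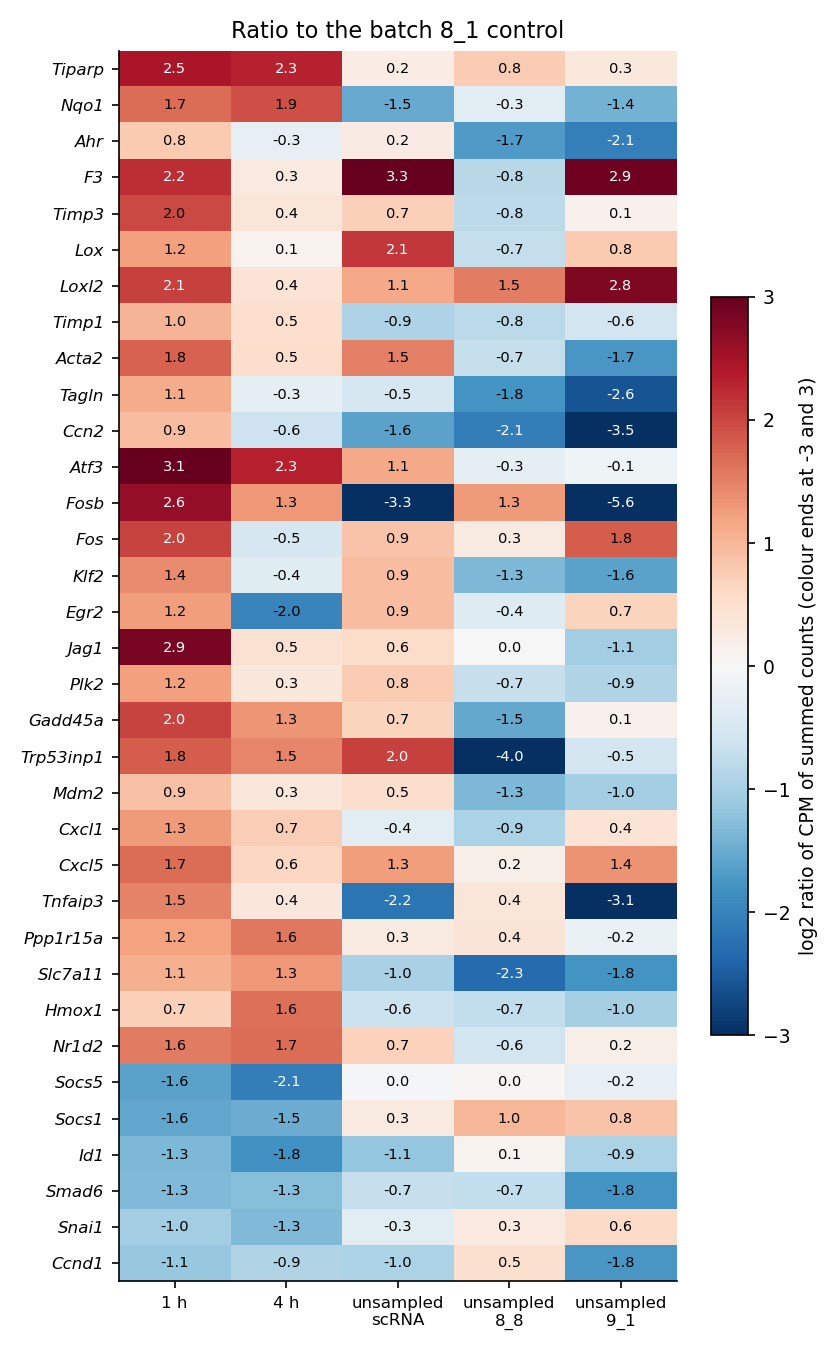
Rows are genes named in the text and columns the 1 h, 4 h and 3 unsampled groups, and colour gives the log2 ratio of summed CPM to the control of batch 8_1. Tiparp, Nqo1 and Atf3 are higher in both sampled columns, with F3 and Jag1 higher at 1 h, and the unsampled columns show that F3 was also high in batches scRNA and 9_1 (495.01 and 394.2 CPM).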

How the data were processed

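Whole-cell libraries of IBA cells of batch 8_1 (70 control, 49 at 1 h, 43 at 4 h) and of 153 unsampled IBA cells of other batches were used. The authors aligned reads to GRCm38 (mm10) with STAR 2.6.1c and counted them per gene with HTSeq regardless of strand. The deposited table holds raw counts of 30452 features, which are reads and not molecules, and cells that failed the study's limits are already absent. Its other 697 columns were not used. Spike-in counts were not analysed.

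As in the study, 20 genes seen in negative controls and 91 that encode ribosomal proteins were set aside. Counts were summed per group and scaled to CPM, and per-cell levels used log2(CPM + 1). A gene was counted in when 15% or more of the 119 pooled cells had 2 or more counts. The study fitted edgeR with cells as replicates. Here cells are not replicates, so no test was run, and differences past 2-fold are described. Intervals are exact Poisson and binomial at 95%. Genes named are the 4 markers, the 12 highest and 12 lowest log2 ratios (mean of at least 50 CPM, detected share and mean log2 level moving the same way, past 2-fold without the top cell), at most 4 members of each of 28 lists with the largest ratio, and central members. Predicted genes were passed over. The clusters of mitochondrial share, and all values within them, were chosen after the values were seen. The members and lists were chosen with earlier results of these data known. Scripts were tested on simulated data. Scaling alternatives used edgeR 4.0.16 (TMM) and DESeq2 1.42.0 size factors in R 4.3.3, and the rest Python 3.11.15 with numpy 2.4.6, pandas 2.3.3, scipy 1.17.1 and matplotlib 3.10.9. Gene positions are from GENCODE on GRCm38, for 30340 matched features, and promoters are from RefSeq (32851 promoters, GRCm38.p6), with all 4 markers matched. Items withheld for evaluation are not reported here.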

Additional observations from a re-analysis of the deposited data

How the results depend on the processing

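The 59 genes past 2-fold that are named by rule kept the direction of their log2 ratio under every other scaling, weighting, thinning and cell or gene filter tried within these groups, except for Fos (-0.30) and Trp53inp1 (-0.38) in cells below 6% mitochondrial share, where Adm had no control count and was not compared. Egr2, named above but not among the 59, also turned in those cells, to -0.30 from 1.25 over all cells. Past 2-fold in the same direction were 44 of the 59 at or above 6% mitochondrial share, 48 of 58 below it, 50 of 59 after thinning and 55 to 59 of 59 under the other scalings, weighting and filters. With unsampled cells of another batch as the control, 48 (scRNA), 57 (8_8) and 46 (9_1) of 59 kept it. The log2 ratio reversed against batch scRNA for Adm (-1.30), Bbc3 (-0.76), Ctdnep1 (0.69), F3 (-1.03), Kcnq1ot1 (0.72), Lgr6 (1.41), Lox (-0.90), Ndrg1 (-1.11), Plat (-2.10), Trp53inp1 (-0.23) and Vcam1 (-1.73). It reversed against 8_8 for Kcnq1ot1 (0.76) and Plat (-1.03), and against 9_1 for Bbc3 (-0.024), Bhlhe40 (-0.35), Ccnd1 (0.61), Ctdnep1 (0.33), F3 (-0.71), Fabp4 (-0.17), Kcnq1ot1 (0.41), Lgr6 (0.48), Loxl2 (-0.74), Ndrg1 (-1.83), Plat (-2.19), Smad6 (0.45) and Vcam1 (-1.92). Those batches also differ in sorting, which cannot be told apart from sampling.

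The share of genes past 2-fold, 2.59% higher and 5.45% lower, was 4.08% higher with equal weight per cell, 10.8% and 14.3% of 17406 genes without the count filter, and 0.799% and 0.848% of 4129 genes at a mean of 50 CPM. It was 10.2% and 18.2% in cells below 6% mitochondrial share, where 12 1 h cells remain, and 11.2% and 22.8%, 9.74% and 17.7%, and 12.2% and 25.2% against batches scRNA, 8_8 and 9_1. The cause was not tested. The alternatives on mitochondrial genes, mitochondrial share and genes detected were chosen after seeing the data. Of the list medians reported, those of membrane repair (-0.005) and glucocorticoid-responsive genes (-0.03) turned with equal weight per cell, those of heat shock (-0.03), glucocorticoid-responsive (-0.08) and mesenchymal genes (0.04) with thinning, and that of MAP kinase feedback (-0.03) in cells with at least 5000 genes. No paired analysis was possible because each group is 1 batch and its cell numbers only name cells. Leaving out a replicate was not possible for the same reason, and the top cell of each gene was left out in its place. Reads were not collapsed to molecules, so counting intervals are narrower than the spread between cells, and no culture was repeated.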
